A study of Mus musculus with 12 samples.

Results

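Interscapular brown fat (iBAT) was compared with epididymal white fat (eWAT), the brown depot between the shoulder blades and the visceral pad attached to the epididymis. The libraries were chosen by their labels alone: 3 iBAT and 3 eWAT libraries, 6 of the 12 in the series. RNA was sequenced from 4 adipose depots of untreated C57BL/6 mice, all male, 8 weeks old and kept at ambient temperature, and the other 2 depots are supraclavicular brown fat (scBAT) and inguinal white fat (iWAT). No genetic change, diet or cold exposure is named for any group. The labels do not say whether the libraries of a depot came from separate animals, so p-values here measure only the spread between libraries, which may be technical. Each library was made from whole tissue, and fewer cells of a type and less RNA per cell cannot be told apart in any result below.

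Brown adipocytes burn fatty acids and glucose to make heat. Noradrenaline from sympathetic nerves acts on beta-adrenergic receptors, raises cyclic AMP, frees fatty acids from lipid droplets and activates UCP1, a carrier in the inner mitochondrial membrane that lets protons bypass ATP synthase. White adipocytes store triglyceride in a single large droplet and secrete hormones such as leptin, and epididymal fat lies in the abdominal cavity under a layer of mesothelial cells.

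Total counts ran from 17159401 to 17751125 in iBAT and from 23793792 to 29262554 in eWAT. Levels are in CPM, counts scaled to a common library size of 1e6 with TMM factors. The tissue labels matched the marker sums: the 19 brown adipocyte genes in the table summed to 10073, 11007 and 9408 CPM in iBAT and 345, 642 and 422 in eWAT, and the 13 white adipocyte genes to 992, 746 and 985 and 7311, 6749 and 7171. Some libraries stood apart. The 21 skeletal muscle genes summed to 632, 857 and 2221 CPM in iBAT 1, 2 and 3, so iBAT 3 held the most. In eWAT 3, 78 genes reached at least 10 CPM and at least 8 times the level of both other eWAT libraries, a rule set after seeing the data. They were led by intestinal transcripts, among them Apoa1 at 178 CPM, Fabp2 at 158 and Reg3b at 107. The same rule found 21 genes in eWAT 2, led by the salivary-type transcripts Bpifa2 (47.3, 1224 and 64.3 CPM in eWAT 1, 2 and 3) and Smr3a (33.5, 843 and 41.1). It found 1 gene in iBAT 3, the lipid transporter Mfsd2a (1.47, 0.956 and 21.5 CPM in iBAT), and none in the other 3 libraries. Salivary-type genes were present in iBAT as well, with sums of 651, 1107 and 1423 CPM. The part of these transcripts in the differences below was not tested, and results they touch are given with and without the library.

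**Figure D1:**
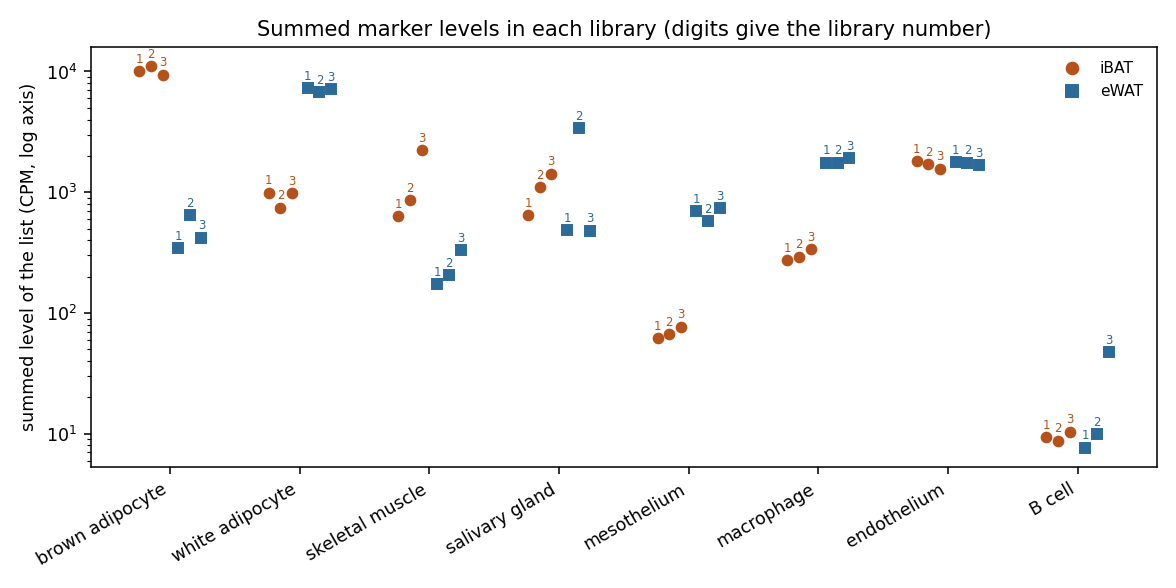
Summed level of 8 marker lists in each of the 6 libraries, in CPM on a log axis, with circles for iBAT, squares for eWAT and the library number above each point. The brown and white adipocyte sums separate the depots, muscle genes are highest in iBAT 3 (2221 CPM), salivary-type genes in eWAT 2 (3395 CPM) and B cell genes in eWAT 3 (47.5 CPM).

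The depots differed in 53.7% of the tested genes: 7998 of 14898 genes passed an adjusted p of 0.05, with 3901 (26.2%) higher and 4097 (27.5%) lower in iBAT (edgeR quasi-likelihood test, adjusted over all tested genes). Of these, 1932 (13.0%) were at least 2-fold higher and 2834 (19.0%) at least 2-fold lower. The 3 libraries of one depot did not overlap the 3 of the other for 11119 genes, 74.6% of those tested. Counts of list members are read against these shares. Over all tested genes the log2 difference had a median of -0.05. As a root mean square difference of log2 CPM, libraries of iBAT lay 0.450 apart (median of 3 pairs, 0.374 to 0.492), libraries of eWAT 0.534 apart (0.414 to 0.552) and an iBAT library 1.45 from an eWAT library (median of 9 pairs, 1.39 to 1.54). The biological coefficient of variation was 12.1% within iBAT and 17.5% within eWAT. The test used the spread of all 12 libraries, 26.1%, and the iWAT libraries varied most at 42.6%. The labels do not state strand-specific counting, so genes that overlap another coding gene in the annotation may share its reads. Among the genes named here these are Acot11, Fabp3, Elovl3, Csf1r, S100b, Hspe1, Ucp2, Slc25a25, Esrra, Elovl1, Atp2a1, Ckmt1, Cp, Col18a1, Bmp4, Tgfb3, Fgf1, Rarb, Shox2, Cox6a2 and Dcpp1, besides Hox and Zic genes.

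Thermogenic genes were far higher in iBAT. Ucp1, on chromosome 8, 83290352 to 83298452 (GRCm38), stood at 2334, 2396 and 1793 CPM in iBAT 1, 2 and 3 and at 24.2, 87.7 and 24.8 in eWAT 1, 2 and 3. Every iBAT library was above every eWAT library, and eWAT 2 was the highest of its depot (log2 difference 5.58, SE 0.57, adjusted p = 1.86e-05). Without eWAT 2 the difference was 6.47. The same eWAT library led for Cidea, a lipid droplet protein of brown adipocytes, at 1878, 1911 and 1856 CPM in iBAT and 28.3, 105 and 32.2 in eWAT, with a log2 difference of 5.09 (SE 0.64) that was 5.96 without it. Dio2, which converts thyroxine to its active form within adipocytes, was at 112, 123 and 165 CPM in iBAT and 1.03, 2.97 and 1.07 in eWAT, 79.9-fold higher in iBAT (log2 difference 6.32, SE 0.45, adjusted p = 1.87e-06), and the difference was 6.98 without eWAT 2. eWAT 2 also held the most salivary-type RNA, and the part of either signal in the other was not tested.

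Of the brown adipocyte list, 18 of 19 tested members were higher in iBAT and none lower, with a median log2 difference of 4.73. Ebf2, an early factor of the brown lineage, was the member that missed the threshold: it stood at 108, 98.1 and 198 CPM in iBAT and 65.4, 74.5 and 70.2 in eWAT, a log2 difference of 0.94 (SE 0.43) with adjusted p = 0.0848. Prdm16, a coregulator that holds brown adipocyte identity, was 4.601-fold higher at 45.1, 36.4 and 52.3 against 7.77, 11.9 and 9.47 CPM. The members furthest apart were Slc27a2, an acyl-CoA synthetase of long chains, at 338, 445 and 342 against 2.48, 7.34 and 4.01 CPM (81.6-fold), and the proton channel Otop1 at 208, 231 and 247 against 1.63, 5.79 and 1.82 CPM (75.1-fold, and a log2 difference of 7.04 in place of 6.23 without eWAT 2). Acot11, a thioesterase induced in brown fat, was 57.0-fold higher and Elovl3, an elongase of very long fatty acids, 47.8-fold higher, the latter from a low level of 10.5, 13.6 and 19.7 CPM in iBAT (0.213, 0.555 and 0.157 in eWAT; log2 difference 6.27 without eWAT 2). The number higher was 18 with iBAT 3 and eWAT 3 left out and 18 without eWAT 2. It was 19 of 19 without iWAT 2, without iWAT 3, with iWAT left out and with only the iBAT and eWAT libraries. Whether Ebf2 passed thus depended on the iWAT libraries in the fit.

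The 15 genes with the largest higher values in iBAT also held genes from outside the brown adipocyte list. Lgr6, a receptor for R-spondins, was at 78.7, 68.2 and 23.8 CPM in iBAT and 0.390, 1.07 and 0.627 in eWAT, so iBAT 3 was the lowest of its depot and still above every eWAT library (82.1-fold). Kng2, a kininogen, stood at 228, 206 and 109 against 2.63, 4.16 and 2.16 CPM (60.9-fold), and the asparaginase Aspg at 247, 344 and 269 against 3.55, 9.04 and 4.202 CPM (51.5-fold). Gldn, the adhesion protein gliomedin, was at 19.3, 16.3 and 3.94 CPM in iBAT and 0.177, 0.515 and 0.0941 in eWAT (50.9-fold, SE 1.02 on the log2 scale, and a log2 difference of 6.56 in place of 5.67 without eWAT 2). The others were Zic1, given with the position genes, Adprhl1 (60.6-fold), the tubulin Tuba8 (45.4-fold) and Cpn2, a subunit of carboxypeptidase N (44.9-fold). Zic1 and Cpn2 belong to the marker list of classical brown fat. Kng1 and Kng2 are closely similar copies, so the count of Kng2 is uncertain.

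**Figure D2:**
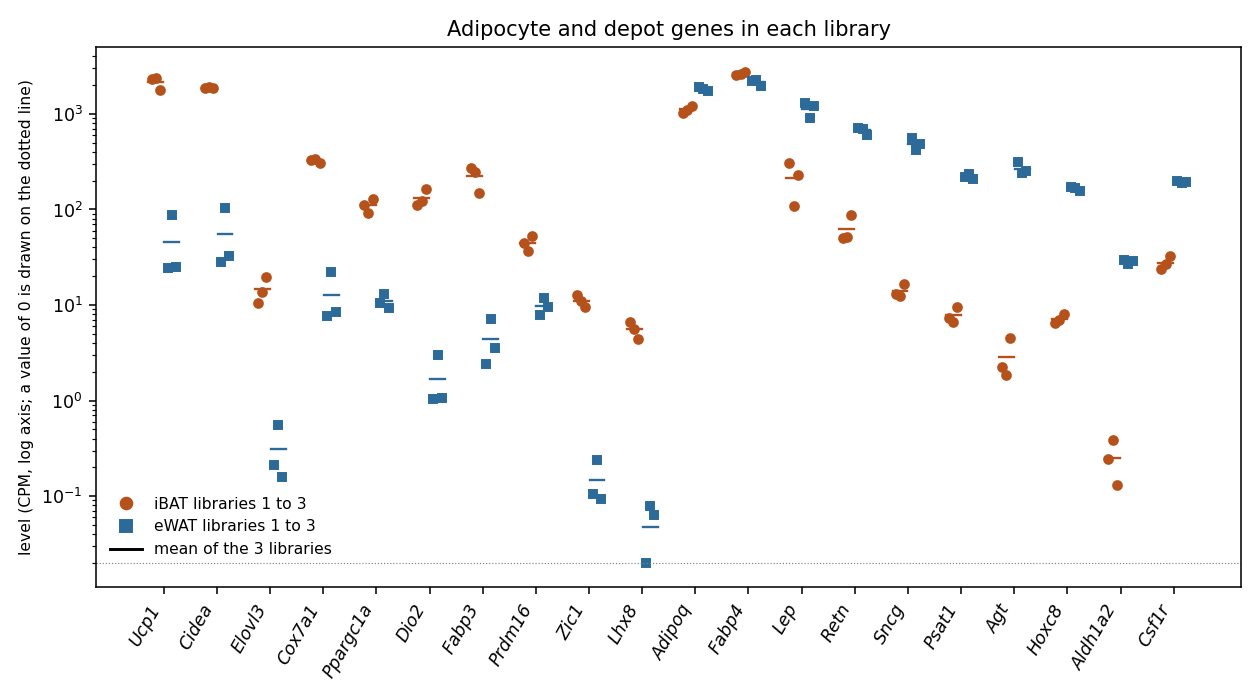
Level of 20 genes in each library, in CPM on a log axis, with circles for the 3 iBAT libraries, squares for the 3 eWAT libraries and bars for their means. Ucp1 spans 24.2 CPM in eWAT 1 to 2396 in iBAT 2, and the 3 iBAT and 3 eWAT libraries do not overlap for any of the 20 genes; Fabp4 has the smallest gap.

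Along the signaling route the depots differed in both directions, and 14 of 21 tested genes were higher and 3 lower in iBAT (median 1.26). The beta-adrenergic receptors Adrb1 and Adrb3 differed in opposite directions. Adrb1 stood at 30.2, 41.8 and 40.0 CPM in iBAT and 12.4, 9.001 and 12.7 in eWAT, higher in iBAT by 1.72 on the log2 scale. Adrb3, the receptor most typical of rodent adipocytes, was lower in iBAT, at 258, 251 and 195 CPM against 1076, 851 and 876 (log2 difference -1.99, SE 0.36, adjusted p = 0.000805). The inhibitory receptor Adra2a was also lower, at 0.122, 0.319 and 0 against 2.52, 1.90 and 2.04 CPM, a log2 difference of -3.82 (SE 0.81) that was -4.99 without iBAT 2.

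Adenylyl cyclases, which make cyclic AMP, differed by isoform. Adcy3 was at 207, 231 and 305 CPM in iBAT and 30.6, 33.5 and 34.3 in eWAT (7.54-fold higher in iBAT), and Adcy5 at 9.23, 10.4 and 23.4 and 205, 256 and 273 (17.1-fold lower in iBAT). Downstream, Gnas, the stimulatory G protein subunit, was 3.02-fold higher and Prkaca, the catalytic subunit of protein kinase A, 2.4001-fold higher. Pde4d, a phosphodiesterase that breaks cyclic AMP down, was 13.4-fold higher at 193, 226 and 250.2 against 12.3, 20.7 and 17.1 CPM. Pde3b, the phosphodiesterase through which insulin acts, did not pass, with 671, 619 and 674 CPM in iBAT and 547, 686 and 587 in eWAT (adjusted p = 0.771). Letmd1, a mitochondrial protein needed for brown fat heat production, was 11.3-fold higher with 844, 849 and 786 against 72.3, 82.5 and 64.5 CPM.

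Of the regulators of mitochondrial and fatty acid genes, 12 of 27 tested were higher and 4 lower in iBAT (median 0.35). The coactivators of the PGC-1 family were among the higher ones: Ppargc1b stood at 142, 124 and 121 CPM in iBAT and 7.17, 9.68 and 7.18 in eWAT (log2 difference 4.01, SE 0.17, adjusted p = 2.26e-07), and Ppargc1a at 112, 90.9 and 128 and 10.4, 13.0 and 9.34 (10.1-fold). Ppara, the fatty acid sensor that drives oxidation genes, was 22.4-fold higher at 871, 835 and 849.8 against 30.5, 46.4 and 37.1 CPM. Pparg, the master regulator of both adipocyte types, was at 429, 338 and 431 and 372, 307 and 263 CPM and did not pass (adjusted p = 0.367). The estrogen-related receptors Esrra and Esrrg were 4.65-fold and 26.5-fold higher (log2 difference of Esrrg 4.73, and 5.34 without eWAT 2). Nrip1, a corepressor of oxidation genes, was lower in iBAT at 20.96, 19.3 and 25.5 against 81.5, 133 and 103 CPM, as were Rxra, Cebpd and Zfp516, with log2 differences of -2.27, -1.18, -1.88 and -0.47. The smallest of these, Zfp516, no longer passed without iBAT 1 (adjusted p = 0.0577) or eWAT 2 (0.0625).

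Nuclear genes of the respiratory chain were higher in iBAT almost throughout. Of the 5 complexes with cytochrome c, 79 of 83 tested genes were higher and 2 lower, with a median log2 difference of 2.05. All 36 of complex I were higher, over a narrow range from 1.40 (Ndufa2) to 2.60 (Ndufv1). Ndufs8, an iron-sulfur subunit, stood at 398, 396 and 354 CPM in iBAT and 64.1, 73.7 and 58.0 in eWAT (log2 difference 2.55, SE 0.16, adjusted p = 9.76e-07). The 4 genes of complex II and the 9 of complex III were also all higher, with medians of 2.36 and 2.26. In complex IV and cytochrome c, 16 of 17 were higher, and the exception was Cox4i2, a subunit isoform used at low oxygen, at 5.01, 4.46 and 3.55 and 5.75, 4.40 and 4.92 CPM (adjusted p = 0.387). Mitochondrially encoded subunits are not analysed here.

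ATP synthase was the complex with genes moving the other way. Of 17 tested, 14 were higher in iBAT (median of the list 1.73) and Atp5g1 and Atpif1 lower. Atp5g1, one of the genes for the rotor subunit c, stood at 9.35, 11.1 and 14.99 CPM in iBAT and 42.4, 40.2 and 39.8 in eWAT (log2 difference -1.79, SE 0.20, adjusted p = 3.06e-05). Its sister genes were Atp5g2, 2.20-fold higher in iBAT, and Atp5g3, which did not pass at 324, 355 and 345 against 296, 325 and 278 CPM (adjusted p = 0.416). The mature protein of the sister genes is the same and they have processed pseudogenes, so the division of reads among them is uncertain. Atpif1, the inhibitor that blocks the enzyme from running in reverse, was at 14.8, 16.8 and 14.2 CPM in iBAT and 33.0, 30.2 and 34.5 in eWAT (log2 difference -1.09, SE 0.12, adjusted p = 3.47e-05). Against these, the catalytic subunit Atp5b was 3.26-fold higher at 4676, 4768 and 4564 against 1419.6, 1585 and 1297 CPM.

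All 18 tested genes of the tricarboxylic acid cycle were higher in iBAT, from 1.37 (Suclg2) to 3.27 (Sucla2) with a median of 2.48. The succinyl-CoA ligase subunits were the ends of that range: Sucla2, of the ATP-forming enzyme, stood at 1762, 1704 and 1677 against 165, 207 and 160.4 CPM (9.65-fold), and Suclg2, of the GTP-forming one, at 242, 246 and 263 against 94.1, 105 and 92.3 (2.58-fold). In mitochondrial fatty acid oxidation 19 of 21 were higher and 2 lower (median 2.12). Acaa2 and Hadhb, thiolases of the last step, were 11.9-fold and 9.16-fold higher. Both lower genes were carnitine palmitoyltransferases, the gate for fatty acids into mitochondria: Cpt1a stood at 34.8, 31.8 and 32.9 CPM in iBAT and 118, 135 and 137 in eWAT (log2 difference -1.97, SE 0.09, adjusted p = 2.73e-07) and Cpt1c at 2.14, 1.98 and 1.49 and 7.63, 5.35 and 7.02.

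For pyruvate entry, 10 of 13 genes were higher and 2 lower in iBAT (median 1.98). The kinases that switch pyruvate dehydrogenase off differed by isoform. Pdk4 was at 1733, 2459 and 1563 against 52.0, 101 and 82.3 CPM and Pdk1 at 311, 377 and 411 against 66.7, 81.1 and 63.4, 24.5-fold and 5.21-fold higher in iBAT. Pdk3 was 7.57-fold lower, at 1.71, 2.23 and 2.71 CPM in iBAT and 17.0, 15.9 and 17.5 in eWAT. Of the phosphatases that switch the complex on, Pdp2 was 3.95-fold higher and Pdp1 1.39-fold lower.

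Together the 119 genes of the respiratory chain, the tricarboxylic acid cycle and fatty acid oxidation took 9.47% ± 0.328 of all counts in iBAT and 2.34% ± 0.203 in eWAT (SD, n = 3 each). Since CPM values share a fixed total, TMM scaling sets the level of the rest, and the median log2 difference of the genes outside this set was -0.06.

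Since this set moved together, its promoters were searched for the short sequences often described at mitochondrial and thermogenic genes, on both strands, in windows of 300 bases from 250 before to 50 after each annotated start (RefSeq, GRCm38.p6). Windows were found for 98 of its 118 tested genes and for 11764 of all 14898 tested genes, and a gene counted when any of its windows held the motif. The core of the nuclear respiratory factor 1 site, GCGCATGC, was in 15 of 98 (15.3%), against 635 of 11764 (5.40%) of all and 8 of 67 (11.9%) of the mitochondrial ribosome genes. Among all genes called higher in iBAT the share with the core was 6.80%, and among those at least 2-fold higher 5.25%, near that of all genes. The cyclic AMP response element, TGACGTCA, was in 7 of 98 (7.14%), against 3.29% of all. The estrogen-related receptor element, TCAAGGTCA, was in 2 of 98 (2.04%; 0.306% of all), Sdhd and Atp5g3, of which Atp5g3 was not called, the PPAR direct repeat AGGTCANAGGTCA in 0 of 98 (0.0510% of all) and the MEF2 element in 0 of 98 (0.553% of all). These matches are a description and were not tested. The estrogen-related receptor element and the PPAR repeat share the element AGGTCA, and the respiratory factor core overlaps its own reverse complement. Stretches with up to 25 bases around the motif show where it lies: the core, or its reverse complement, in Cycs at chr6:50566597-50566654 (minus strand), Ndufa6 at chr15:82354342-82354399 (minus strand) and Acadm at chr3:153944769-153944826 (minus strand), and the cyclic AMP response element in Dio2 at chr12:90739101-90739158 (minus strand) and Ogdh at chr11:6291521-6291578 (plus strand). They were picked among the matches that lie before the start of the RefSeq transcript and before the outermost GENCODE start of the gene, and are written 5′ to 3′ on the strand of the gene, with the motif in capitals.
Cycs: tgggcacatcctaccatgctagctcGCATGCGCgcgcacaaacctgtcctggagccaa
Ndufa6: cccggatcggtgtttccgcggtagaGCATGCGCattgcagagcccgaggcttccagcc
Acadm: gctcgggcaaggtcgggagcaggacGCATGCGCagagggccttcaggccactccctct
Dio2: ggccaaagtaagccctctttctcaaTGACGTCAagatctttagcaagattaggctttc
Ogdh: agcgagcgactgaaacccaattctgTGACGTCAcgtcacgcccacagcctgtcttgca

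The distance from the end of the motif to the RefSeq start was 52 bases in Cycs, 75 in Ndufa6 and 87 in Dio2. Cycs, which encodes cytochrome c, held both motifs and stood at 471, 508 and 458 CPM in iBAT and 80.9, 98.5 and 73.6 in eWAT (5.68-fold). Ndufa6 of complex I was 4.64-fold higher. Nrf1 itself, the factor named after the core, was at 20.96, 16.1 and 18.9 against 20.5, 20.3 and 19.9 CPM and did not pass (adjusted p = 0.654).

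Genes of the machinery that builds mitochondria were higher in iBAT, with smaller medians. Of 76 mitochondrial ribosome genes 75 were higher, with a median of 1.117, and Mrps6 was the one that did not pass (39.1, 36.6 and 40.1 against 56.8, 50.7 and 53.9 CPM, adjusted p = 0.062). Mrpl34 stood at 172, 177 and 161 CPM in iBAT and 29.4, 31.5 and 26.5 in eWAT (5.85-fold). For import, folding and dynamics, 23 of 24 were higher (median 1.35), among them the chaperonin Hspe1 (3.21-fold) and the import motor Timm44 (3.803-fold). Fis1, a fission protein, was the exception with 67.4, 72.6 and 68.9 against 81.0, 75.2 and 77.0 CPM (adjusted p = 0.0988).

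Inner membrane carriers were higher for 12 of 19 and lower for 4. Slc25a42, a coenzyme A carrier, was 7.22-fold higher. Ucp2, the relative of Ucp1 found in many cells, was lower in iBAT at 66.1, 71.7 and 67.9 against 221, 204 and 222 CPM (log2 difference -1.65, SE 0.24, adjusted p = 0.000224). The dicarboxylate carrier Slc25a10 was 8.25-fold lower, and Slc25a13 and Slc25a25 were lower too. Of peroxisomal genes 7 of 21 were higher and Abcd2 lower (median 0.34). Abcd2, a transporter of very long fatty acids, was at 124, 107 and 162 CPM in iBAT and 913, 1029 and 861 in eWAT, whereas its relative Abcd3 was 3.61-fold higher in iBAT. Without iWAT 2 the peroxisome counts were 11 higher and 2 lower.

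**Figure D3:**
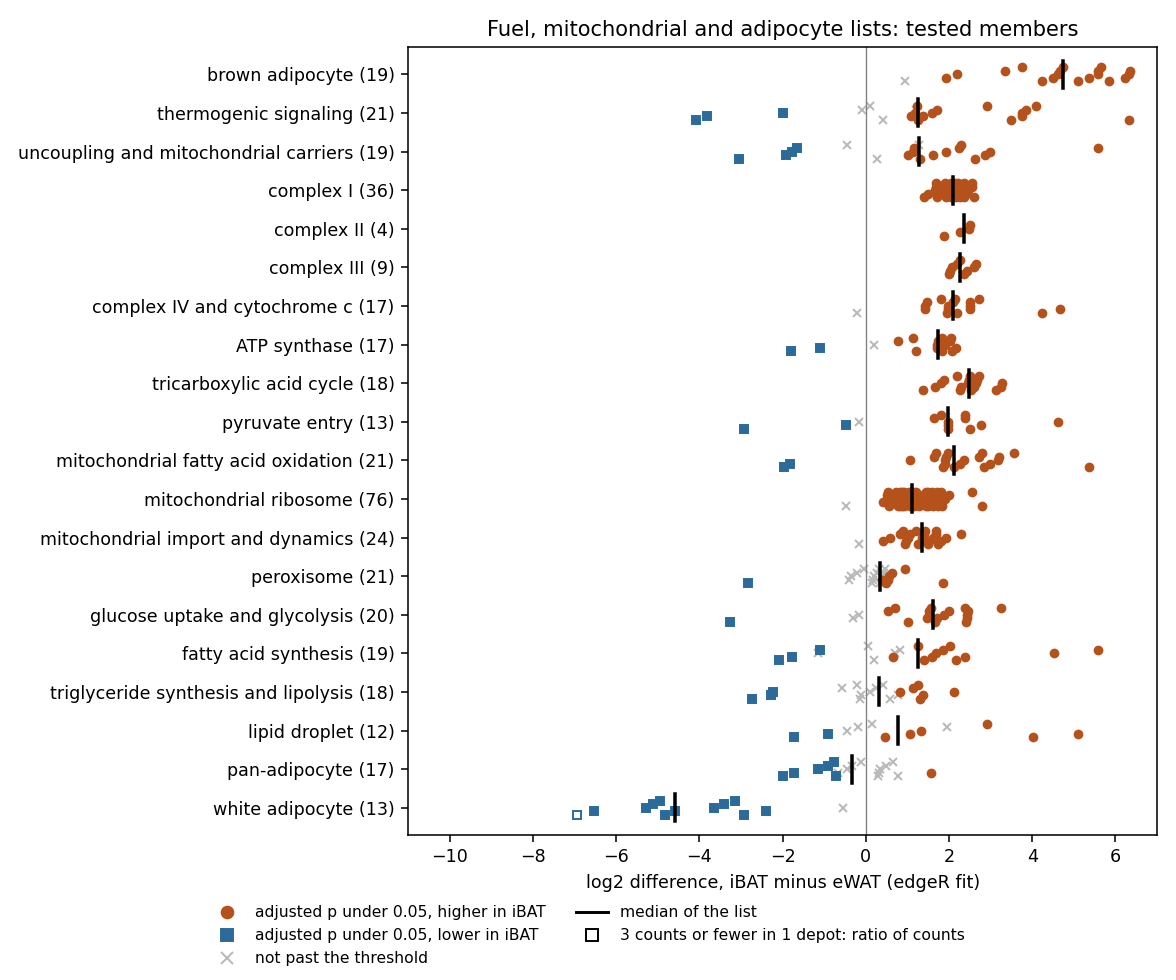
Log2 difference, iBAT minus eWAT, of the tested members of 20 lists (number in parentheses), with circles for genes higher and squares for genes lower at an adjusted p under 0.05, crosses for the rest and a black bar at the median; open symbols are ratios of counts for genes with 3 counts or fewer in a depot. The respiratory complexes and the tricarboxylic acid cycle lie to the right of 0 apart from Atp5g1, Atpif1 and Cox4i2, and the white adipocyte list lies below 0 (median -4.58).

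Several enzymes come as a pair of isoforms, 1 typical of muscle and heart and 1 of other tissues, and the balance differed between depots. Levels per kilobase of merged exons were compared within each pair. Cox7a1 made up 56.6%, 55.2% and 54.5% of the Cox7a1 and Cox7a2 level in iBAT 1, 2 and 3 and 10.3%, 23.7% and 12.4% in eWAT. Cox8b made up 48.1% ± 0.660 of its pair in iBAT and 11.4% ± 6.12 in eWAT (mean and SD, n = 3 each). In both pairs eWAT 2 had the highest share of its depot, 18.5% for Cox8b against 7.73% and 8.10%. The other members were higher in iBAT as well: Cox7a2 by 1.98 and Cox8a by 1.46 on the log2 scale, against 4.66 for Cox7a1 and 4.24 for Cox8b. Without eWAT 2 the last values were 5.33 and 4.93.

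Fabp3, the fatty acid binding protein of heart, made up 36.4%, 34.0% and 22.6% of the sum with Fabp4 in iBAT and 0.596%, 1.70% and 0.992% in eWAT. Fabp4 itself was at 2566, 2629 and 2751 CPM in iBAT and 2196, 2278 and 1946 in eWAT and did not pass (adjusted p = 0.288), while Fabp3 was 50.6-fold higher. For carnitine palmitoyltransferase, the muscle form Cpt1b was 41.1-fold higher but low, at 4.28, 2.74 and 2.45 CPM in iBAT and 0.0710, 0.119 and 0.0314 in eWAT. Per kilobase it made up 17.5% ± 3.803 of its sum with Cpt1a in iBAT and 0.129% ± 0.0740 in eWAT, so the larger share in iBAT remained that of Cpt1a. Ldhb, the lactate dehydrogenase subunit of oxidative tissues, made up 49.9% ± 1.45 in iBAT and 17.6% ± 0.413 in eWAT. With the longest transcript in place of merged exons the iBAT share was 48.9% ± 1.118 for Cox7a1 and 39.7% ± 1.38 for Ldhb, so which member of a pair is the larger depends on the length used for Cox7a1. The muscle isoforms Cox6a2, Eno3 and Pgam2 were higher in iBAT too, and were highest in iBAT 3, where muscle genes were most abundant: Cox6a2 stood at 1.83, 3.12 and 8.91 CPM in iBAT. The log2 difference of Pgam2 was 2.40, and 1.66 without iBAT 3. Without iBAT 3, Cox6a2 and Eno3 no longer passed (adjusted p = 0.131 and 0.153).

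**Figure D4:**
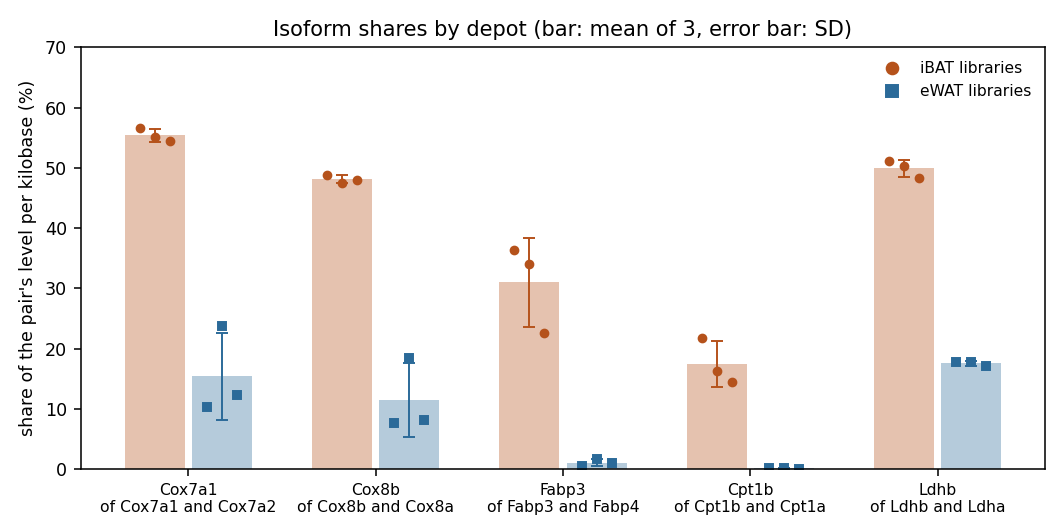
Share of the first gene in the summed level of each isoform pair, per kilobase of merged exons, in percent, with bars for the mean of 3 libraries, error bars for the SD and points for the libraries. Shares are higher in every iBAT library than in every eWAT library for all 5 pairs, and eWAT 2 stands above eWAT 1 and 3 for Cox7a1 and Cox8b.

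Genes of fat synthesis and glucose use were mostly higher in iBAT, and those of fat storage were mixed. Of 19 fatty acid synthesis genes 11 were higher and 3 lower (median 1.26). Fasn, the fatty acid synthase, stood at 14260.1, 14496 and 15678 CPM in iBAT and 3781, 4588 and 2651 in eWAT, and Elovl6, which lengthens its product, at 1386, 1751 and 1823 and 59.2, 105 and 52.4 (22.9-fold). Scd1, the stearoyl-CoA desaturase, was at 23695, 26309 and 24118 against 10478, 10901 and 9581 CPM (2.39-fold). The desaturases Fads1 and Fads2 of polyunsaturated fatty acids and the elongase Elovl1 were lower, with Fads1 at 23.5, 22.6 and 24.4 against 102, 101 and 99.1 CPM. Mlxipl, the carbohydrate response factor of fat synthesis, was 3.20-fold higher, while Srebf1 did not pass (adjusted p = 0.65).

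In glucose uptake and glycolysis 17 of 20 were higher and Slc2a3 lower (median 1.62). The insulin-responsive transporter Slc2a4 was 2.97-fold higher at 872, 825 and 1024 against 329, 305 and 284 CPM. Slc2a3, a high-affinity transporter of nerve and blood cells, was 9.62-fold lower, and Slc2a1 did not pass at 17.9, 18.6 and 15.9 against 22.0, 21.7 and 20.98 CPM. Pgk1 and Pkm, enzymes of the pay-off phase, were 5.49-fold and 5.24-fold higher. Eno1 was near 0 in all libraries and its many pseudogenes make its count uncertain.

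For lipid droplets 6 of 12 were higher and 2 lower. Plin5, which ties droplets to mitochondria, stood at 306, 291 and 375 CPM in iBAT and 16.5, 25.7 and 17.7 in eWAT (16.2-fold), and Plin4 of white adipocyte droplets at 942, 701 and 1143 and 2989, 3173 and 3014 (3.29-fold lower in iBAT). Cidec, which fuses droplets into one, was 1.87-fold lower, a call that was lost without any 1 of the 6 libraries, or without scBAT 2, scBAT 3 or iWAT 1 (without 1 of the 6, adjusted p = 0.0514 to 0.128). Of triglyceride synthesis and lipolysis, 6 of 18 were higher and 3 lower (median 0.33). The higher count was 8 without iWAT 2 or 3 and 3 with iBAT 3 and eWAT 3 left out. With iWAT left out 10 were higher and 4 lower. The lipases Pnpla2, at 3307, 3188 and 3285 against 1956, 1899 and 1842 CPM, and Lipe did not pass (adjusted p = 0.061 and 0.792). Gpd1, which supplies the glycerol backbone, was 4.32-fold higher, and the acyltransferases Agpat9 and Mogat1 were 6.64-fold and 4.72-fold lower.

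Of genes for fatty acid uptake and binding, 5 of 17 were higher and 2 lower (median -0.01). The higher share was near that of all tested genes, and the lower count was 4 without iWAT 2 or 3. Lpl, the lipoprotein lipase, was at 3880.4, 4091 and 4692 CPM in iBAT and 6677, 7306 and 6099 in eWAT (adjusted p = 0.0852), and Cd36 at 2483, 2284 and 2521 and 3002, 3280.5 and 2924 (adjusted p = 0.371). The transporter Slc27a1 was 2.36-fold lower, which did not hold without iBAT 1 (adjusted p = 0.0558) or iBAT 2 (0.0556). Acyl-CoA thioesterases were higher for 7 of 9, with Acot13 6.57-fold higher and Acot2 2.19-fold. Breakdown of branched-chain amino acids had 12 of 20 higher and Bcat1 and Bcat2, the aminotransferases of the first step, lower, with log2 differences of -2.68 and -0.70. The higher count was 17 without iWAT 2, 14 without iWAT 3 and 18 with iWAT left out. It was 9 with iBAT 3 and eWAT 3 left out. The call for Bcat2 was lost without any 1 of the 6 libraries or without scBAT 2 (without 1 of the 6, adjusted p = 0.0559 to 0.103). Cholesterol synthesis had 6 of 17 higher and 1 lower, and the lower count was 0 without any 1 of the 3 iBAT libraries, eWAT 2 and eWAT 3 and 2 without iWAT 2 or 3.

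The creatine and calcium cycling list mixed fat and muscle genes, 7 of 14 higher and 4 lower. Gamt, the last enzyme of creatine synthesis, was lower in iBAT at 7.09, 5.54 and 7.36 against 39.1, 32.8 and 31.8 CPM (log2 difference -2.37, SE 0.33, adjusted p = 0.000149), and so was the first, Gatm, with 3.42, 5.35 and 3.29 against 5.86, 8.96 and 10.1 CPM. The call for Gatm was lost without iBAT 1, iBAT 3 or eWAT 3 (adjusted p = 0.0551 to 0.0563). Ckb, the creatine kinase of non-muscle cells, was 1.74-fold lower and no longer passed without iBAT 3 (adjusted p = 0.0704) or eWAT 1 (0.0741). Ckmt1, at 0.122, 0.127 and 0.323 against 1.88, 2.06 and 20.7 CPM, was highest in eWAT 3, the library with intestinal transcripts, and its log2 difference was -3.34 in place of -5.40 without it. Atp2a2, the calcium pump of the endoplasmic reticulum, was 1.69-fold higher.

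White adipocyte genes were lower in iBAT: 12 of 13 tested members passed and none was higher, with a median of -4.58. Lep, the satiety hormone leptin, on chromosome 6, 29060220 to 29073877, stood at 303, 109 and 229.9 CPM in iBAT and 1300.0, 909 and 1205 in eWAT (log2 difference -2.41, SE 0.55, adjusted p = 0.00369), with iBAT 2 the lowest library. Nnat, a paternally expressed membrane protein, was at 27.0, 30.8 and 55.9 against 1502, 1405 and 1503 CPM (38.8-fold lower), Sncg, a synuclein of white adipocytes, at 12.9, 12.5 and 16.8 against 561, 417 and 485 (34.7-fold) and Psat1, a serine synthesis enzyme, at 7.27, 6.69 and 9.43 against 218, 237 and 208 (28.3-fold). Agt, the precursor of angiotensin, stood at 2.26, 1.85 and 4.52 CPM in iBAT and 313, 241 and 250.1 in eWAT (93.2-fold lower). Tcf21, a transcription factor of visceral mesenchyme, had no count in iBAT and 8.09, 7.77 and 7.56 CPM in eWAT, at least 124-fold lower if the iBAT libraries together held 3 counts, the floor used for genes with none. Fzd4, a Wnt receptor, was the member that did not pass (adjusted p = 0.177).

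Of secreted hormones, 4 of 18 tested were higher and 11 lower in iBAT (median -1.22). Resistin (Retn) was 10.6-fold lower and adipsin (Cfd) 2.22-fold lower. Nampt, an enzyme of NAD synthesis that is also secreted, was higher at 762, 739.5 and 938 against 220.0, 243 and 237 CPM. Vegfa, the vessel growth factor, was 2.004-fold higher at 707, 731 and 664 against 322, 304 and 423 CPM, and did not pass without iBAT 1, 2 or 3, eWAT 1 or 2 or scBAT 1 or 2 (without 1 of the first 5, adjusted p = 0.067 to 0.108). The batokine Nrg4 stood at 223, 251 and 252 against 136, 192 and 167 CPM and did not pass (adjusted p = 0.191). Without iBAT 2 the higher count was 2.

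Of genes common to all adipocytes, 1 was higher, 6 lower and 10 did not pass out of 17 (median -0.34, beside -0.05 for all tested genes). Adiponectin (Adipoq) was at 1021, 1095 and 1222 CPM in iBAT and 1935, 1810.3 and 1731 in eWAT (log2 difference -0.71, SE 0.28, adjusted p = 0.0498). That call was lost without any 1 library of iBAT, scBAT or eWAT or without iWAT 1 (without 1 of the 6, adjusted p = 0.0855 to 0.144). The number lower was 3 without any 1 of the 6 libraries or without scBAT 2 or 3, 4 without scBAT 1 or iWAT 1 and 9 with iWAT 1 and 3 left out. The number higher was 5 without iWAT 2, 3 without iWAT 3 and 7 with iWAT left out. Car3, a carbonic anhydrase abundant in fat, showed the same, at 3238, 3153 and 3768 against 5842, 6192 and 5254 CPM and an adjusted p of 0.0336 that ran from 0.0599 to 0.111 without 1 of the 6 libraries and was also lost without any 1 scBAT library.

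The most extreme lower values belonged to the mesothelium, the sheet that covers abdominal organs. Of 12 tested genes 11 were lower in iBAT and none higher, with a median of -8.04 when genes with no iBAT count are set at their bound (-9.11 as fitted). Upk3b, a uroplakin of mesothelial cells, had no count in any iBAT library and 186, 160.4 and 169 CPM in eWAT, at least 2731-fold lower. Msln, mesothelin, was also at 0 in iBAT and at 117, 76.8 and 94.3 CPM in eWAT (at least 1531-fold), as were Upk1b (at least 699.8-fold) and the transcription factors Wt1 (at least 315-fold) and Bnc1 (at least 220.4-fold). Each passed with an adjusted p of 4.05e-06 to 5.75e-05. Outside the list, Tnfrsf11b, the decoy receptor osteoprotegerin, and Chst4, a sulfotransferase, had no iBAT count, and Slpi, a protease inhibitor, stood at 0.183, 0.255 and 0 CPM in iBAT and 146, 86.8 and 113 in eWAT (log2 difference -9.56, and -10.18 without iBAT 2). Gpm6a, a membrane glycoprotein, was low but detected in iBAT at 0.672, 0.765 and 0.452 CPM against 59.1, 53.9 and 60.5. Tm4sf1 was the list member that did not pass (adjusted p = 0.124).

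The keratins belong partly to this group. Krt19 stood at 0, 0.0637 and 0.194 CPM in iBAT and 58.8, 34.5 and 72.5 in eWAT, and Krt14, a keratin of basal epithelium, at 0, 0 and 0.0646 and 24.99, 7.45 and 12.9. Krt8 was at 18.8, 16.7 and 98.1 CPM in eWAT, highest in eWAT 3, and its log2 difference was -7.62 in place of -8.95 without that library. Krt14 rested on 1 count in iBAT, a ratio of 726 with an exact 95% counting interval of 130.0 to 28688. Intervals and floors cover counting error only. Col6a5, a collagen VI chain, was at 0.122, 0.319 and 0.0646 CPM in iBAT and 59.0, 92.1 and 62.1 in eWAT (408-fold lower). The intestinal genes Slc5a1 and Mgam also ranked among the 15 lowest, but through eWAT 3: Slc5a1 was at 0.0355, 0.119 and 64.7 CPM in eWAT with no iBAT count, and Mgam at 0.852, 1.31 and 76.9. Mgam rested on 3 counts in iBAT, a ratio of 466 (159 to 2263). Without eWAT 3 the adjusted p was 0.366 for Slc5a1 and the log2 difference -3.98 for Mgam. The fitted value of Krt19 was -9.26, and -10.56 without iBAT 3, and that of Col6a5 -8.67, and -9.48 without iBAT 2.

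Matrix genes were lower in iBAT nearly as a block, 23 of 24 of fibrillar collagen and matrix (median -2.65) and 15 of 17 of basement membrane (median -1.54), with none higher. Dcn, decorin, stood at 192, 208 and 215 CPM in iBAT and 1004, 998 and 943 in eWAT (log2 difference -2.26, SE 0.21, adjusted p = 1.02e-05). Fibronectin (Fn1) was at 51.5, 49.4 and 67.6 against 776, 853 and 1015 CPM (15.7-fold lower) and Fbln1, a fibulin, at 3.30, 4.65 and 4.78 against 77.2, 71.1 and 73.1 (17.4-fold). Postn, a matrix protein of remodelling tissue, was the exception with 159, 175 and 158 against 169, 194 and 215 CPM (adjusted p = 0.56). Of basement membrane, Col15a1 was 14.996-fold and Col18a1 10.2-fold lower. With iBAT 3 and eWAT 3 left out the counts were 22 and 9.

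Complement genes were lower for 16 of 18 (median -2.75). C2 stood at 8.74, 11.5 and 21.3 CPM in iBAT and 427, 357 and 406 in eWAT (28.6-fold lower), and C4b at 45.3, 48.3 and 69.2 and 1147, 911 and 1305 (20.7-fold; its neighbour C4a is a near-identical copy, so its count is uncertain). Plasma carriers of iron and copper were lower too: transferrin (Trf) was at 154, 139 and 224 CPM in iBAT and 3128, 2902 and 2768 in eWAT (17.0-fold lower) and ceruloplasmin (Cp) 6.05-fold lower. The transferrin receptor Tfrc, which takes iron into cells, was 3.68-fold higher in iBAT. Of 15 heme and iron genes 8 were higher and 3 lower, 4 and 3 with iBAT 3 and eWAT 3 left out.

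**Figure D5:**
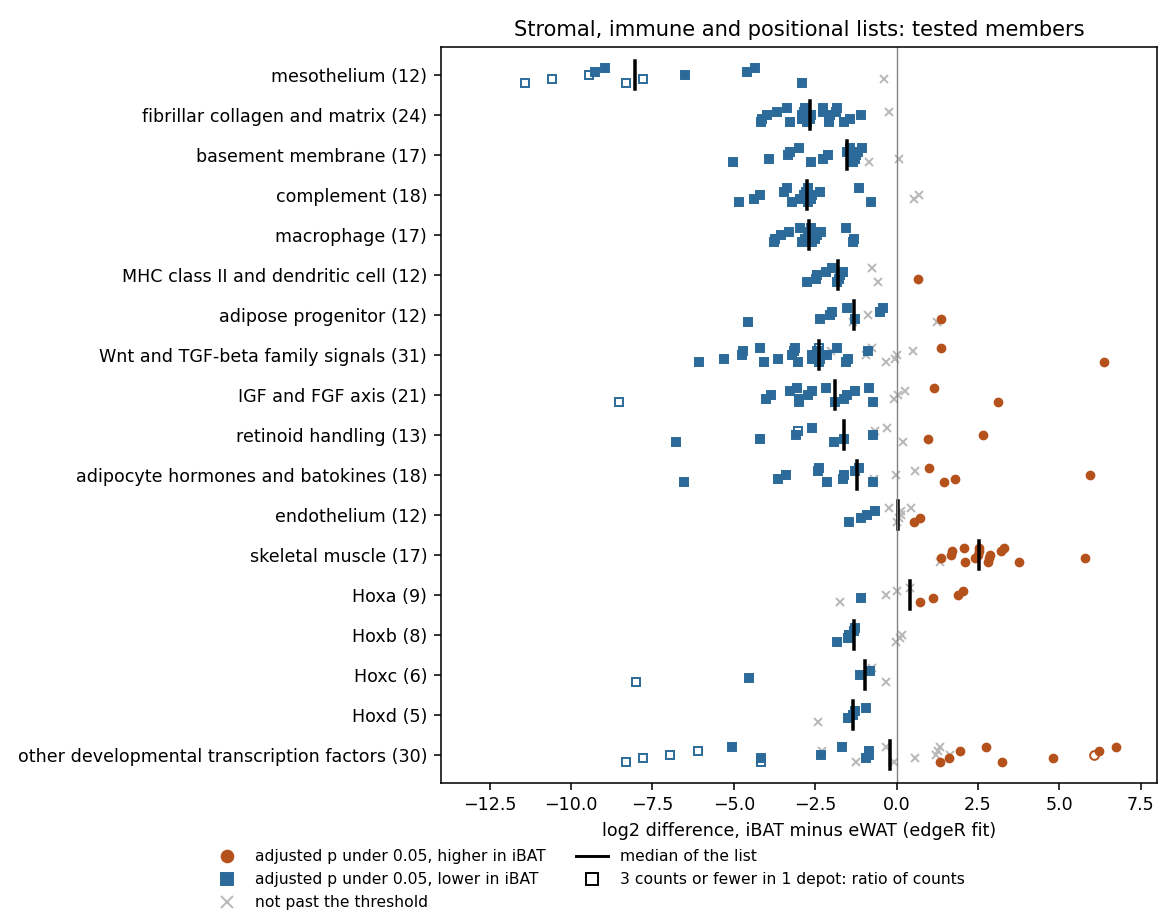
Log2 difference, iBAT minus eWAT, of the tested members of 18 lists, drawn as for the metabolic lists; open symbols are ratios of counts, set at their bound where a depot had no count. Mesothelium reaches furthest to the left (median -8.04), matrix, complement and macrophage genes lie to the left of 0 apart from genes that did not pass, and skeletal muscle lies to the right (median 2.53).

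Macrophage genes were lower in iBAT for all 17 tested members (median -2.69), and their sum was 275, 294 and 338 CPM in iBAT and 1755, 1762 and 1903 in eWAT. Csf1r, the receptor that keeps macrophages alive, stood at 23.6, 26.9 and 32.4 CPM in iBAT and 198, 191 and 196 in eWAT (log2 difference -2.82, SE 0.12, adjusted p = 2.26e-07). Itgam was 13.3-fold, Cd68 7.89-fold and Lyve1, of tissue-resident macrophages, 13.6-fold lower. Genes of MHC class II and dendritic cells were lower for 9 of 12, with H2-Ab1 at 62.1, 67.9 and 63.0 against 286, 233 and 238 CPM; Zbtb46, a factor of dendritic cells that endothelium also expresses, was 1.58-fold higher. With all 12 libraries and TMM scaling, none of 10 B cell and 11 T cell genes passed in edgeR. At an unadjusted p under 0.05 in edgeR they numbered 0 and 1. At an adjusted p under 0.05, limma-voom called 0 and 0, and DESeq2 0 and 1, the T cell gene lower in iBAT. Calls appeared in edgeR under other sets of libraries, all lower in iBAT: 2 T cell genes without iWAT 2, with iWAT left out or with only the iBAT and eWAT libraries, 1 without iWAT 3, and 1 B cell gene with iWAT left out. With upper quartile scaling 1 T cell gene passed. B cell genes were at 7.67, 9.99 and 47.5 CPM in eWAT, highest in eWAT 3, and 9.41, 8.79 and 10.4 in iBAT. Mast cell proteases such as Tpsb2 (0.122, 0.255 and 0.452 against 3.87, 3.61 and 4.89 CPM) were lower, while Kit, a receptor of mast cells and other cells, was 2.59-fold higher.

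Vessel genes did not move as a block. Of 12 endothelial genes 2 were higher and 4 lower (median 0.04), beside 26.2% higher and 27.5% lower of all tested genes. Their sum was 1817, 1701 and 1572 CPM in iBAT and 1770.1, 1762 and 1680.1 in eWAT. Pecam1 and Cdh5, which define endothelium, stood at 306, 284 and 259 against 286, 288 and 264 and 372, 356 and 326 against 339.8, 344 and 329 CPM and did not pass (adjusted p = 0.901 and 0.846). The second higher gene, the VEGF receptor Kdr, was lost without any 1 library of iBAT, eWAT or scBAT or without iWAT 1 (adjusted p = 0.0646 to 0.172), and the higher count was 3 without iWAT 2 or 3. Vwf, of larger vessels, was 2.73-fold lower, and the pericyte gene Rgs5 2.32-fold higher. Schwann cell and nerve genes were higher for 6 of 9 and lower for 2, of which Pmp22 was lost without iBAT 1 (adjusted p = 0.0587) or iBAT 2 (0.0547). S100b, known from Schwann cells and also from adipocytes, was at 86.2, 62.2 and 59.9 against 1.74, 2.42 and 2.23 CPM, and the myelin gene Mag was lower in iBAT. Progenitor genes were lower for 8 of 12, with Dpp4 at 2.63, 2.74 and 4.07 against 67.0, 62.7 and 95.8 CPM and Pdgfra 4.13-fold lower; F3, of an anti-adipogenic progenitor, was 2.56-fold higher, and the higher count was 2 without iBAT 3, scBAT 1, iWAT 2 or iWAT 3.

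Proliferation genes were lower for 10 of 16 (median -1.39), with Mki67 at 4.83, 3.50 and 3.17 CPM in iBAT and 15.7, 22.1 and 25.3 in eWAT. The count was 6 without iBAT 1 and 4 with iBAT 3 and eWAT 3 left out. It was 15 without iWAT 2, with iWAT left out and with only the iBAT and eWAT libraries.

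Skeletal muscle genes were higher in iBAT for 16 of 17 (median 2.53). Myh4, a fast myosin, stood at 92.5, 151 and 539 CPM in iBAT and 10.2, 18.1 and 28.9 in eWAT, and Acta1, skeletal actin, at 71.7, 105 and 318 and 30.3, 30.4 and 57.8. iBAT 3 was the highest library for both. Without iBAT 3, 9 of the genes passed, Acta1 did not (adjusted p = 0.124), and the log2 difference of Myh4 was 2.68 in place of 3.77. Acta1 also did not pass without eWAT 1 (0.0736) or eWAT 2 (0.0719). Ckm and Atp2a1, the creatine kinase and calcium pump of fast muscle, had log2 differences of 3.19 and 3.34, and of 2.27 and 2.38 without iBAT 3. That of Ckm was 3.79 without eWAT 3.

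Secreted signals of mesenchyme were mostly lower in iBAT. In the Wnt and TGF-beta families 22 of 31 were lower and 2 higher (median -2.35). Rspo1, an R-spondin that boosts Wnt signaling, stood at 0.672, 0.637 and 0.517 CPM in iBAT and 43.4, 38.2 and 41.8 in eWAT (log2 difference -6.06, SE 0.32, adjusted p = 4.62e-07), the reverse of its receptor Lgr6. Wnt2b was 26.1-fold, Bmp4 8.94-fold and Tgfb3 5.48-fold lower, and Wnt11 2.59-fold higher. In the IGF and FGF axis 16 of 21 were lower (median -1.89). Fgf10, a growth factor of preadipocytes, was at 5.19, 5.48 and 6.46 against 95.2, 100.3 and 83.5 CPM and Fgf1 at 32.5, 25.1 and 17.2 against 168, 156 and 172. The 2 higher genes were Fgf16, at 3.67, 3.12 and 2.20 against 0.497, 0.317 and 0.219 CPM, and Klb, the coreceptor for FGF21, at 58.2, 58.0 and 58.8 against 26.2, 26.6 and 26.2. Klb did not pass without eWAT 1 (adjusted p = 0.0547), eWAT 2 (0.0522) or eWAT 3 (0.0555).

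Retinoid genes were lower for 8 of 13 (median -1.61). The retinoic acid synthases Aldh1a2 and Aldh1a1 stood at 0.244, 0.382 and 0.129 against 29.2, 26.9 and 28.8 CPM and 12.0, 10.4 and 18.1 against 258, 228 and 263, 109.8-fold and 18.5-fold lower in iBAT. Rarb, a retinoic acid receptor, was 6.30-fold higher. Chemokines were lower for 9 of 17, with Ccl6 at 8.07, 10.3 and 10.5 against 163, 163 and 176 CPM. Cxcl14, a chemokine of brown fat, was higher at 15.03, 16.6 and 11.4 against 5.54, 5.35 and 4.95 CPM, and did not pass without iBAT 2 (adjusted p = 0.0504) or eWAT 3 (0.0518).

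Genes that record body position split the depots both ways. Hox genes are expressed in order along the body, the early numbers towards the head. Of 28 tested, 4 were higher and 14 lower in iBAT. Hoxc8, on chromosome 15, 102990607 to 102994111, stood at 6.54, 6.94 and 8.14 CPM in iBAT and 173, 168 and 157 in eWAT (log2 difference -4.53, SE 0.37, adjusted p = 4.82e-06), and Hoxc9 next to it, on chromosome 15, 102976439 to 102985099, at 0, 0 and 0.0646 and 7.06, 4.76 and 4.52. Hoxc9 rested on 1 count in iBAT, a ratio of 258 with an exact 95% counting interval of 46.1 to 10216. Hoxc10, a gene of inguinal fat, was near 0 in both depots (0 counts in iBAT, 9 in eWAT). In the Hoxa cluster 4 of 9 tested genes were higher, Hoxa3, Hoxa4, Hoxa5 and Hoxa9, and 1 of 9 lower, Hoxa7. Hoxa4 was at 18.3, 18.4 and 17.7 against 4.08, 5.04 and 4.202 CPM and Hoxa5 at 41.9, 43.7 and 37.4 against 19.3, 17.9 and 19.1, 4.08-fold and 2.19-fold higher in iBAT. Hoxb and Hoxd genes were lower for 5 of 8 and 4 of 5. Genes of a Hox cluster overlap in the annotation, and the labels do not state strand-specific counting, so their counts may share reads.

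Some calls in the Hox clusters lay near the threshold and were lost when any 1 of several libraries was left out. Hoxa3 did not pass without any 1 of iBAT 1, iBAT 2 and the 3 eWAT libraries (adjusted p = 0.0523 to 0.0894). Hoxa7 did not pass without iBAT 2, iBAT 3 or eWAT 1 (adjusted p = 0.0543 to 0.056), and the count for Hoxc was 2 without iBAT 1, 2 or 3 or eWAT 1. With iBAT 3 and eWAT 3 left out the Hoxb count was 1.

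Of other developmental transcription factors 9 of 30 were higher and 12 lower, beside 26.2% higher and 27.5% lower of all tested genes. The higher share was near that of all tested genes. Zic1, a factor of dorsal somites and the mark of interscapular brown fat, on chromosome 9, 91358058 to 91365810, stood at 12.6, 11.02 and 9.43 CPM in iBAT and 0.106, 0.238 and 0.0941 in eWAT (log2 difference 6.22, SE 0.65, adjusted p = 6.19e-05). Its neighbour Zic4 overlaps it on the other strand and was at 1.47, 1.27 and 1.94 and 0.0355, 0 and 0.0314 CPM. Lhx8, on chromosome 3, 154306294 to 154330659, was at 6.66, 5.67 and 4.46 against 0, 0.0793 and 0.0627 CPM and Tbx5, a factor of heart and forelimb, at 8.80, 9.94 and 7.56 against 0.106, 0.595 and 0.251; the Tbx5 difference of 4.79 was 5.55 without eWAT 2. Gata6, of visceral mesoderm, was 18.0-fold lower at 1.59, 1.53 and 1.10 against 24.7, 27.0 and 24.7 CPM, and Osr1 33.1-fold lower. The low-level genes Shox2 and En1 were higher, at 0.917, 0.701 and 1.55 and 0.856, 0.573 and 0.904 CPM in iBAT. The log2 difference of Shox2 was 1.94, and 2.56 without eWAT 1. Shox2 did not pass without iBAT 3, eWAT 2 or eWAT 3 (adjusted p = 0.0726 to 0.0893), nor En1 without any iBAT or eWAT library but iBAT 2 (0.0519 to 0.108).

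Classical brown and beige adipocytes had a marker list each, and the lists were not tested against each other. Of the classical brown list 7 of 9 were higher and 1 lower, the latter Hspb7, a small heat shock protein, with 2.44, 2.99 and 7.23 against 15.2, 5.59 and 13.2 CPM. The libraries overlapped for Hspb7, and its call was lost without iBAT 1 or 2, eWAT 1 or 3, scBAT 1 or 2 or iWAT 1 (in the first 4, adjusted p = 0.102 to 0.133). The lower count was 2 without iWAT 2 or 3. Of the beige list 3 of 10 were higher and 3 lower, shares near those of all tested genes, and the lower count was 6 without iWAT 2 and 5 without iWAT 3. P2rx5, a purinergic receptor, was 19.2-fold higher at 179.9, 161 and 205 against 9.09, 9.56 and 9.88 CPM and the amino acid carrier Slc36a2 3.73-fold higher, while Hoxc9, Klhl13 and Tmem26 were lower. Tmem26 did not pass without iBAT 3 (adjusted p = 0.0653) or eWAT 3 (0.0578). Tbx1, a gene of beige fat, was near 0 in both depots, at 0.0611, 0.127 and 0.323 and 0.0355, 0.952 and 0.282 CPM (adjusted p = 0.261).

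General cell functions were read from 4 further lists. Proteasome genes were higher for 18 of 30 (median 0.50), with Psmb3 2.13-fold higher. Of cytosolic ribosome genes 9 of 36 were higher (median 0.28), a share near the 26.2% of all tested genes and a count that was 28 without iWAT 2 and 2 with iBAT 3 and eWAT 3 left out. Clock genes were higher for 4 of 15, also a share near that of all tested genes, and lower for 1 (median -0.03). Per2 and Dbp, whose RNA swings most over a day, stood at 75.5, 70.1 and 112 against 80.8, 80.1 and 96.7 and 125, 148 and 140.4 against 165, 137 and 119 CPM and did not pass. Of immediate early and heat shock genes 5 of 16 were lower, a share near the 27.5% of all tested genes. The lower genes were led by Hspa1b and Fos (log2 difference -2.02 and -2.29), and Hsph1 was 1.95-fold higher (2 genes were higher without iWAT 2). Hspa1a and Hspa1b are near-identical copies, so the split of their reads is uncertain.

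The difference between iBAT and eWAT was also set against that between scBAT and iWAT. For 685 genes (4.60% of those tested) the contrasts differed, 219 with iBAT minus eWAT above scBAT minus iWAT and 466 below (edgeR, adjusted over all genes). Without iWAT 2 the counts were 4312 and 3988, and without any 1 of the other libraries they ran from 29 to 147 and from 136 to 434. Genes of other cell kinds in the other depots were among the largest. The B cell gene Cr2 stood at a mean of 124 CPM in iWAT and 0.794 in iBAT, and the salivary-type gene Dcpp1 at 269.9 in scBAT and 42.3 in eWAT. Salivary-type genes summed to 3335 to 15012 CPM over the scBAT libraries and B cell genes to 101 to 2431 over the iWAT libraries, and their part in these counts was not tested. For Ucp1 the difference of differences was -0.90 (SE 0.67, adjusted p = 0.364). Macrophage genes were below for 6 of 17, with -1.06 for Csf1r (SE 0.17). Hoxc8 was above by 6.05 (SE 0.85), with means of 0.0419 CPM in scBAT and 70.04 in iWAT. Its scBAT level was near the floor, so the size of this value is uncertain.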

How the data were processed

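RNA was sequenced from whole adipose tissue after TruSeq RNA library preparation, per the labels' protocols. The authors deposited raw read counts per gene, with 23420 genes in 1 table. Per the submitters' processing notes, STAR 2.4.2a, Picard 1.119, HTSeq 0.6.1p1, bcl2fastq 1.8.3 and edgeR were used with build mm10. The annotation and strand setting of the counting are not given in the sources used here. Counts were tested with edgeR 4.0.16 in R 4.3.3: filterByExpr left 14898 genes, libraries were scaled by TMM, and quasi-likelihood fits with robust dispersions used all 12 libraries with 1 mean per depot. P-values were adjusted by Benjamini-Hochberg over all tested genes, and a gene was called at an adjusted p under 0.05. All log2 differences are iBAT minus eWAT, and fold changes come from them. Alternatives used limma 3.58.1 (voom), DESeq2 1.42.0, other scalings and filters, and left-out libraries. A test on simulated data with the 12 library sizes (14706 genes) called 89 of 100 genes changed 4-fold, 5 of 100 changed 1.5-fold and 4 of 14506 unchanged genes. Its counts were drawn with the spread fitted to all 12 libraries. Other values were computed in Python 3.11.15 with numpy 2.4.6, pandas 2.3.3 and scipy 1.17.1. Gene positions and lengths are from GENCODE M21 (GRCm38), promoters from RefSeq.

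The members and gene lists were chosen with earlier results of these data known. Genes are named by a rule: the 15 largest called differences each way at 10 CPM or more without overlap of libraries and without predicted gene models, up to 4 members of each list by adjusted p, members called against the rest of their list, a fixed set of depot genes, the 10 genes with the highest CPM in each depot, the 6 largest differences of differences each way, and the isoform pairs. A further 45 genes, such as Ebf2, Adrb1, Ppara, Pparg, Sucla2, Fn1, Pecam1, Apoa1 and Bpifa2, were chosen for their role after their values were seen. Some genes that the rule names are not reported here.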

Additional observations from a re-analysis of the deposited data

Results flagged for a closer look

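For 55 of the genes named by the rule or for their role and called between iBAT and eWAT, the difference between the depots also differed from the difference between scBAT and iWAT, by a test of the difference itself (edgeR, adjusted p under 0.05 over all tested genes). Values are log2 differences of differences, iBAT minus eWAT less scBAT minus iWAT, and a negative value means that the iBAT side is relatively lower in the first contrast. Of all 14898 tested genes 685 (4.60%) differed in this way, 219 above 0 and 466 below. List counts in this section are read against that share. A count of 1 gene is not read as a result about its list. Salivary-type transcripts in scBAT (3335 to 15012 CPM) and lymphocyte transcripts in iWAT 1 and 3 (B cell genes up to 2431 CPM) move with the second contrast, and their part was not tested.

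Position genes split by direction. Above 0 were Hoxa9 7.40, Hoxa7 2.40, Hoxb6 2.38, Hoxb7 3.38, Hoxb9 7.26, Hoxc6 3.10, Hoxc8 6.05, Lhx8 6.35, Tbx15 3.70 and En1 6.43, and below 0 Hoxa4 -1.82, Hoxa5 -2.02, Hoxd3 -1.85, Hoxd8 -2.04, Gata6 -2.26 and Osr1 -4.05. Of the mesothelium list 6 of 12 were below 0 and of surface epithelium 2 of 5. Mesothelial, epithelial and other genes below 0 were Msln -12.64, Tnfrsf11b -9.04, Krt8 -13.86, Krt14 -12.08, Krt19 -8.23, Dsp -11.54, Aqp5 -12.73, Ckmt1 -11.37 and Pdpn -3.21. In eWAT, Krt8, Dsp and Ckmt1 were highest in eWAT 3, the library with intestinal transcripts. Aqp5 belongs to the salivary gland list. Between iBAT and eWAT alone the log2 difference was -3.08 for Aqp5 and -5.40 for Ckmt1. The rest of these 2 values comes from the scBAT and iWAT contrast. The call for Dsp between iBAT and eWAT was lost without eWAT 3 (log2 difference -3.21 in place of -5.35, adjusted p = 0.0805), without iBAT 2 (0.0554) and with limma-voom (0.126). Msln, Tnfrsf11b and Krt14 had 3 counts or fewer in iBAT, so the size of their fitted values depends on the prior count. Hoxc8 was near the floor in scBAT, so the size of its value is uncertain too.

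Of the macrophage list 6 of 17 tested genes were below 0 and none above, and of complement 6 of 18; those named here were Csf1r -1.06, Itgam -1.18 and Lyve1 -2.03 and C1qa -1.26, C1qb -1.15 and C1qc -1.28, the latter 3 in both lists. Of chemokines 3 were above and 1 of 17 below, here Ccl8 2.21 and Ccl6 -2.56. Below 0 were 8 of 24 fibrillar matrix genes, 1 of 17 of basement membrane and 1 of 12 of progenitors, named here as Col14a1 -2.87, Col4a6 -4.68, Dcn -1.49, Fbln1 -3.27, Fn1 -2.73 and Dpp4 -2.32. Of secreted signals, 11 of 31 Wnt and TGF-beta, 3 of 21 IGF and FGF, 2 of 13 retinoid and 1 of 18 hormone genes were below, named here as Rspo1 -4.57, Bmp4 -2.14, Wnt2b -4.18, Tgfb3 -1.36, Fgf1 -2.93, Aldh1a2 -4.17 and Agt -5.96.

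Metabolic genes were Cpt1a -0.73, Atp5g1 -1.36, Gamt -1.82 and Mogat2 -2.36. The rest were Tuba8 2.03, Hspb7 -3.68, Hspa1a -2.40, Hspa1b -2.07 and Myh7 6.85. Of the 55 genes, 55 were called in the same direction with DESeq2, 40 with limma-voom, 45 with iWAT 1 and 3 left out, 22 with iBAT 3 and eWAT 3 left out, and 32 to 55 without any 1 library.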

How the results depend on the processing

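Without any 1 library the counts ran from 3318 to 4991 higher, 3364 to 5159 lower, 1841 to 2085 at least 2-fold higher and 2505 to 3125 at least 2-fold lower, and under every other alternative they stayed within 1.5 times of the reported count, with 3442 higher and 4571 lower under upper quartile scaling, which moved the median of all genes by -0.09. Same-numbered iBAT and eWAT libraries deviated together weakly (r from 0.0880 to 0.188 across genes, at most 0.0497 for other pairs). Among the eWAT libraries alone, 3 of 3 iBAT libraries correlated best with their own number. Same-numbered iBAT and scBAT libraries had r of 0.0663, -0.0537 and -0.155, and iBAT and iWAT libraries -0.0332, -0.0708 and -0.0704. A pair with different numbers, scBAT 3 and eWAT 1, reached 0.337. The main test did not take the numbers as pairs, and pairing of iBAT with eWAT alone was not tested. With a replicate block over all 12 libraries the counts were 3778 higher and 3959 lower, 1924 and 2776 at 2-fold. With only the iBAT and eWAT libraries they were 5016 higher and 5196 lower, 1938 and 2930 at 2-fold. Some genes that did not pass in the main fit may therefore still differ.

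The counts against the scBAT and iWAT contrast moved by more than 1.5 times under several alternatives. Above and below, they were 1292 and 1188 with DESeq2, 49 and 296 with limma-voom, 67 and 259 with the replicate block, 9 and 61 with iBAT 3 and eWAT 3 left out, and 29 to 4312 and 136 to 3988 without 1 library. The cause was not tested. A prior count of 5 put the distance within iBAT at 0.385 and between the depots at 1.34. With the longest transcript the isoform shares were 48.9% (Cox7a1), 45.2% (Cox8b), 12.3% (Cpt1b) and 39.7% (Ldhb) in iBAT, and 12.3% (Ldhb) in eWAT.

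Of 326 called genes named by the rule or for their role, 284 were called in every alternative and 0 were called in the opposite direction in any; limma-voom lost 16, the block 5 and leaving out iBAT 3 and eWAT 3, which was chosen after seeing the data, 35. The salivary-type genes Dcpp1, Pip, Bpifa2 and Smr3a and Crisp1 of the epididymis list, which were not called, became higher in iBAT without eWAT 2, with log2 differences of Dcpp1 2.60 (adjusted p = 0.0423), Pip 2.57 (adjusted p = 0.0244), Crisp1 3.13 (adjusted p = 0.0273), Bpifa2 2.60 (adjusted p = 0.0158) and Smr3a 2.58 (adjusted p = 0.0115); without 1 library their lowest values were -2.46, -1.64, -1.26, -0.93 and -0.98, in the same order, without eWAT 1. Of 49 list counts of 5 or more, 37 stayed within 1.5 times in every alternative. Depth limits what can be said of genes with 3 counts or fewer in a depot. In simulation with the spread of all 12 libraries few changes of 1.5-fold were found. The number of libraries was not varied there.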

Other observations

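Further genes were among the 10 highest by CPM in a depot. Acaca, which makes malonyl-CoA for fat synthesis, was at 3031, 3364 and 3416 CPM in iBAT and 863, 1175 and 689.5 in eWAT (3.60-fold higher in iBAT) and Atp5a1, of ATP synthase, 4.05-fold higher. Gsn, which severs actin filaments, was at 972, 1035 and 1236 CPM in iBAT and 5850.4, 5218 and 5108 in eWAT (log2 difference -2.32, SE 0.31, adjusted p = 0.000118), and Sparc, a matrix protein, 2.72-fold lower. For these genes every iBAT library lay on one side of every eWAT library.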
